A study of Mus musculus with 18 samples.

Results

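The genes described here encode glutamate receptors and the proteins that hold them at the synapse: 38 genes of the 29942 in the table, chosen by name as the AMPA, NMDA, kainate, delta and metabotropic receptor genes with scaffold and kinase genes of the postsynaptic density. All 38 were found by their gene name. They comprise 4 AMPA, 6 NMDA, 5 kainate, 1 delta and 6 metabotropic receptor genes, 13 scaffold genes, and 3 genes for a kinase and an AMPA receptor auxiliary subunit. PolyA RNA of the striatum, taken from both hemispheres and above the anterior commissure, was sequenced in 18 sibling mice of the strain 129Sv/Jae S4. Groups of 3 mice received D-amphetamine hemisulfate, a psychostimulant that releases dopamine, dissolved in 0.9% saline, or received 0.9% saline, in both cases intraperitoneally, and were sampled on day 1, day 7 or day 21. The amphetamine dose was 7 mg/kg in total per day in a volume of 10 ml/kg. The mice were matched for age and sex and housed in groups, but their ages and sexes, the number of injections and the interval before dissection are not stated by the labels. By its title the series concerns repetitive behaviour under the drug, and amphetamine was set against saline on each day and over the days. Levels were deposited as FPKM, in which fragments are scaled by the length of the transcript and the size of the library, so that levels of different genes can be compared per length. Each library was made from 1 animal. The spread between the 3 libraries of a group therefore holds differences between animals and between library preparations, which cannot be told apart.

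Most excitatory input to the striatum comes from the cortex and the thalamus and ends on the spines of projection neurons, where glutamate opens AMPA, NMDA and kainate channels and activates metabotropic receptors coupled to G proteins. AMPA receptors carry the fast current, NMDA receptors admit calcium when glutamate coincides with depolarisation, and calcium then acts on the kinase CaMKII. Inside the spine, Dlg proteins of the PSD-95 family bind channel tails, Dlgap proteins link Dlg to Shank, and Shank and Homer join this lattice to the metabotropic receptors and to actin.

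Many of these contacts are made by the last amino acids of a protein, which fit into a PDZ domain of a scaffold. The ends of 5 coding sequences are shown because they carry such contacts and because these genes, which span a wide range of base composition, recur in the results. The ends of Grin2b, Grin2c and Grik2 are bound by PSD-95 and its relatives, the end of Gria2 by Grip1 and Pick1, and the end of Dlgap3 by Shank proteins. Each line holds the last 60 coding bases, 5′ to 3′, of an annotated GENCODE M21 transcript (build GRCm38), with the 12 bases before the stop codon in capitals. The genes were matched by symbol, since the deposited table holds no coordinates.
Gria2: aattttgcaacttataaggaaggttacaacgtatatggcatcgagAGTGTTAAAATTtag
Grik2: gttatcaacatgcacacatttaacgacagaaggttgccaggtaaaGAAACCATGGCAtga
Grin2b: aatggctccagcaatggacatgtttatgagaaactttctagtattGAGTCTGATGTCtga
Grin2c: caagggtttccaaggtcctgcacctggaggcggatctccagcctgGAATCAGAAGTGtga
Dlgap3: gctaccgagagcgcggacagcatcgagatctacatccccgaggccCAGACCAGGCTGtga

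These ends lie in the last coding exon of each gene. Gria2 ends in exon 15 at chr3:80689106-80689165 on the minus strand, Grik2 in exon 16 at chr10:49101108-49101167 on the minus strand, and Grin2b in exon 14 at chr6:135732098-135732157 on the minus strand. Grin2c ends in exon 13 at chr11:115249571-115249630 on the minus strand and Dlgap3 in exon 12 at chr4:127236309-127236368 on the plus strand. The whole coding sequences differ in base composition, with a GC content of 44.7% in Gria2, 45.3% in Grik2, 52.9% in Grin2b, 62.4% in Grin2c and 64.8% in Dlgap3.

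The 38 genes together amounted to 2091 ± 81.5 FPKM (SD, n = 18 libraries), between 1954 and 2228 FPKM, or 0.369% of the library sum on average. Of these, 6 genes averaged over 100 FPKM, 21 lay between 10 and 100 FPKM, 10 between 1 and 10 FPKM, and 1 below 1 FPKM. The AMPA receptor genes summed to 244.5 ± 18.3 FPKM, the NMDA receptor genes to 149 ± 9.55 FPKM, the kainate receptor genes to 108 ± 6.88 FPKM and the metabotropic receptor genes to 153 ± 11.02 FPKM (SD, n = 18). The scaffold genes summed to 697 ± 38.1 FPKM. In bulk tissue, fewer cells of a type and less RNA per cell cannot be told apart.

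Within the AMPA family the order of levels was the same in every library. Gria2, whose edited subunit keeps calcium out of the channel, averaged 145 FPKM (range 122 to 189) and made up 59.0% of the family's sum. Gria1, which encodes a subunit that is inserted at synapses during potentiation, averaged 59.1 FPKM (48.4 to 65.8). Gria3 averaged 26.5 FPKM (20.3 to 32.7) and Gria4 14.2 FPKM (11.9 to 17.5), so that no ranges of neighbouring genes overlapped.

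The NMDA family was led by Grin1, the subunit that every NMDA receptor contains, at 124 FPKM (109 to 139), 83.5% of the family's sum. The subunits that bind glutamate were each far lower. Grin2c averaged 9.08 FPKM (7.38 to 10.9), Grin2b 6.54 FPKM (2.40 to 10.5), Grin2a 4.89 FPKM (2.91 to 6.61) and Grin2d 1.90 FPKM (1.32 to 3.00). Grin3a, a subunit that binds glycine and lowers calcium permeability, averaged 2.11 FPKM (1.26 to 3.08). The order below Grin1 was not the same in all libraries: Grin2c exceeded Grin2b in 14 of 18 libraries, Grin2b exceeded Grin2a in 15 of 18, and Grin3a exceeded Grin2d in 11 of 18. Grin2b has the longest annotated transcript of these genes, at 24060 bases, and its FPKM depends on the transcript length that the authors' software used, which is not given.

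Among kainate receptor genes, Grik5, whose subunit needs a partner of the Grik1 to Grik3 type to form a channel, was highest at 63.6 FPKM (46.6 to 74.6), 58.8% of the family's sum. Grik2 averaged 26.2 FPKM (21.2 to 30.1) and Grik3 14.999 FPKM (11.9 to 17.3), while Grik4 and Grik1 averaged 1.97 and 1.05 FPKM. The delta receptor gene Grid1, whose product binds cerebellins at the synaptic cleft, averaged 16.9 FPKM (15.3 to 18.5). Grm5, which encodes the metabotropic receptor that signals through phospholipase C and binds Homer, averaged 88.5 FPKM (66.6 to 109) and made up 57.8% of its family's sum. The metabotropic genes whose receptors inhibit adenylyl cyclase were lower: Grm4 averaged 27.0 FPKM, Grm3 20.1 FPKM, Grm7 13.9 FPKM and Grm8 2.69 FPKM. Grm2 averaged 0.557 FPKM (0.326 to 1.21) and was the only one of the 38 genes under the mean of 1 FPKM required for testing, so that 37 of them were tested among 13975 genes.

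Scaffold genes covered a wide range. Dlg4, which encodes PSD-95, averaged 190.2 FPKM (159 to 210.2) and Dlgap3 143 FPKM (110 to 176), at 27.3% and 20.5% of the family's sum. Mice that lack Dlgap3 or Shank3 are known for excessive grooming. Dlg2 averaged 89.9 FPKM, Shank3 70.1 FPKM, Dlg1 52.5 FPKM, Dlgap4 48.2 FPKM and Dlg3 32.4 FPKM. Dlgap2 at 22.4 FPKM, Dlgap1 at 19.6 FPKM, Shank2 at 12.5 FPKM and Shank1 at 11.5 FPKM were lower, and Homer3 and Homer2 averaged 2.54 and 1.90 FPKM. The 2 genes for CaMKII subunits were the highest of the 38: Camk2a averaged 366 FPKM (322 to 409) and Camk2b 328 FPKM (288 to 364), with Camk2a above Camk2b in 18 of 18 libraries. Cacng8, which encodes an auxiliary subunit that carries AMPA receptors to the synapse, averaged 29.6 FPKM (24.6 to 34.0).

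**Figure D1:**
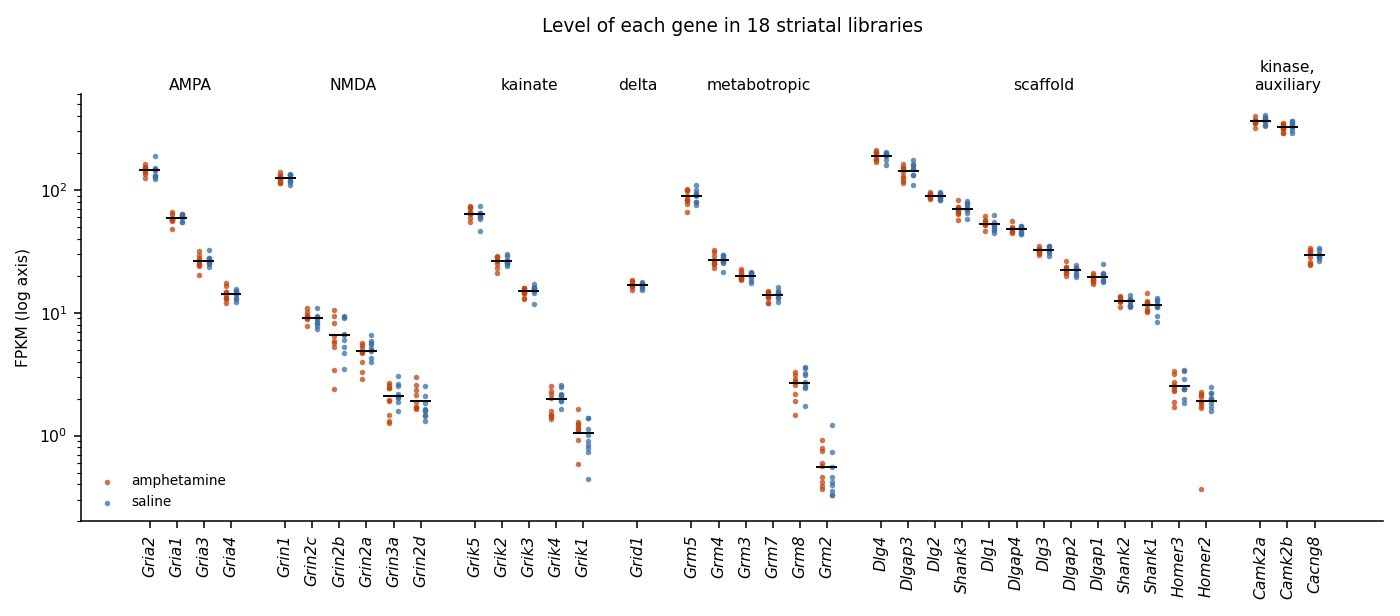
FPKM on a log axis for each of the 38 genes in 9 amphetamine (left, orange) and 9 saline (right, blue) libraries, grouped by family, with the mean of all 18 as a bar. The 4 AMPA receptor genes stand on separate levels, Grin1 stands far above the other NMDA receptor genes, and Grin2b spreads from 2.40 to 10.5 FPKM.

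The genes differed in how steady they were from library to library. Within groups, the SD on the log2(FPKM + 1) scale had a median of 0.15 over the 37 tested genes, against 0.13 over all genes tested. Dlg2, Dlg3 and Shank2 were the steadiest, with SDs of 0.073, 0.075 and 0.076. Grin2b had an SD of 0.51, above 95.2% of all genes tested, and its highest library was 4.35 times its lowest. Homer2, with an SD of 0.28, had 0.368 FPKM in replicate 1 of the amphetamine group of day 7, against 1.58 to 2.51 FPKM in the other libraries, and Grin3a had an SD of 0.27.

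Read totals were unknown, and the libraries were 0.652 to 1 times as deep as the deepest, judged by how finely their low values are spaced. FPKM summed to between 533020 and 682270 per library. The striatal identity of the tissue was clear in each library, where 10 markers of projection neurons such as Ppp1r1b, Drd2 and Adora2a summed to between 3693 and 4542 FPKM. Markers of cortical glutamatergic neurons, of which 9 of 10 listed were in the table, summed on day 1 to 4.61 to 21.5 FPKM in amphetamine libraries and 7.33 to 41.8 FPKM in saline libraries. On day 7 they summed to 3.64 to 13.04 FPKM with amphetamine and 4.86 to 17.2 FPKM with saline, and on day 21 to 16.8 to 32.5 FPKM with amphetamine and 13.001 to 68.3 FPKM with saline. Only 4 of these cortical markers were tested, and 0, 2 and 0 of them had a positive log2 difference on days 1, 7 and 21. Their medians were -0.47, -0.08 and -0.43. Choroid plexus and ependymal markers summed on day 1 to 31.3 to 103 FPKM with amphetamine and 12.3 to 21.6 FPKM with saline, to 11.5 to 34.2 FPKM with amphetamine and 8.91 to 15.8 FPKM with saline on day 7, and to 16.4 to 36.7 FPKM with amphetamine and 11.3 to 45.7 FPKM with saline on day 21. Of 5 tested, 5, 5 and 4 had a positive log2 difference on days 1, 7 and 21, with medians of 0.52, 0.67 and 0.20. The 8 oligodendrocyte markers summed to 1827 to 2977 FPKM with amphetamine and 1331 to 2301 FPKM with saline on day 1, to 1179.9 to 2109.8 FPKM with amphetamine and 1229.6 to 1922 FPKM with saline on day 7, and to 1503 to 1825 FPKM with amphetamine and 1467 to 2077 FPKM with saline on day 21. Their log2 difference was positive for 8, 1 and 1 of 8 on these days, with medians of 0.26, -0.06 and -0.09. The 8 astrocyte markers summed to between 416 and 601 FPKM and the 7 microglial markers to between 88.7 and 119 FPKM. No marker in these lists was at 0 in every library, and the part of these cells in the differences below was not tested.

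Amphetamine and saline libraries did not differ past the threshold for any of the 37 genes on any day. The test was limma on log2(FPKM + 1) with Benjamini-Hochberg adjustment over all 13975 genes and a threshold of 0.05. On day 1, 0 of 37 genes passed, where 0.00716% of all genes tested did (1 gene), and 1 of 37 had an unadjusted p under 0.05, where 7.25% of all genes did. On day 7, 0 of 37 passed, against 0.0215% of all genes (3 genes), and 4 of 37 had an unadjusted p under 0.05, against 4.92%. On day 21, 0 of 37 passed, against 0% of all genes, and 2 of 37 had an unadjusted p under 0.05, against 5.5%. For the mean of the days, 0 of 37 passed, against 0.122% of all genes (17 genes), and 0 of 37 had an unadjusted p under 0.05, against 5.36%. The smallest limma adjusted p among the 37 genes was 0.674, 0.822 and 0.869 on days 1, 7 and 21, and 0.939 for the mean of the days.

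The log2 difference was positive for 15 of 37 genes on day 1, where it was positive for 64.0% of all genes tested, for 18 on day 7, against 51.8%, and for 15 on day 21, against 42.7%. For the mean of the days it was positive for 15 of 37, against 55.6% of all genes. Its median over the 37 genes was -0.020, -0.0053 and -0.025 on days 1, 7 and 21, against 0.047, 0.0036 and -0.020 over all genes tested, and -0.021 for the mean of the days, against 0.0080. The intervals state which sizes of difference on the log2(FPKM + 1) scale the data leave possible. That scale understates changes of genes at low levels, so the bounds below are not bounds on their fold changes. For Grik1 on day 7 the log2 difference was 0.42, and 0.80 with a pseudocount of 0.1. For the mean of the days, the 95% confidence interval lay within 0.5 of 0 on the log2 scale for 36 of 37 genes and within 0.25 of 0 for 26 of 37, and the exception to the wider bound was Grin2b (-0.11, with a 95% confidence interval of -0.58 to 0.37). On a single day the interval lay within 0.5 of 0 for 31 of 37 genes on each of the 3 days.

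**Figure D2:**
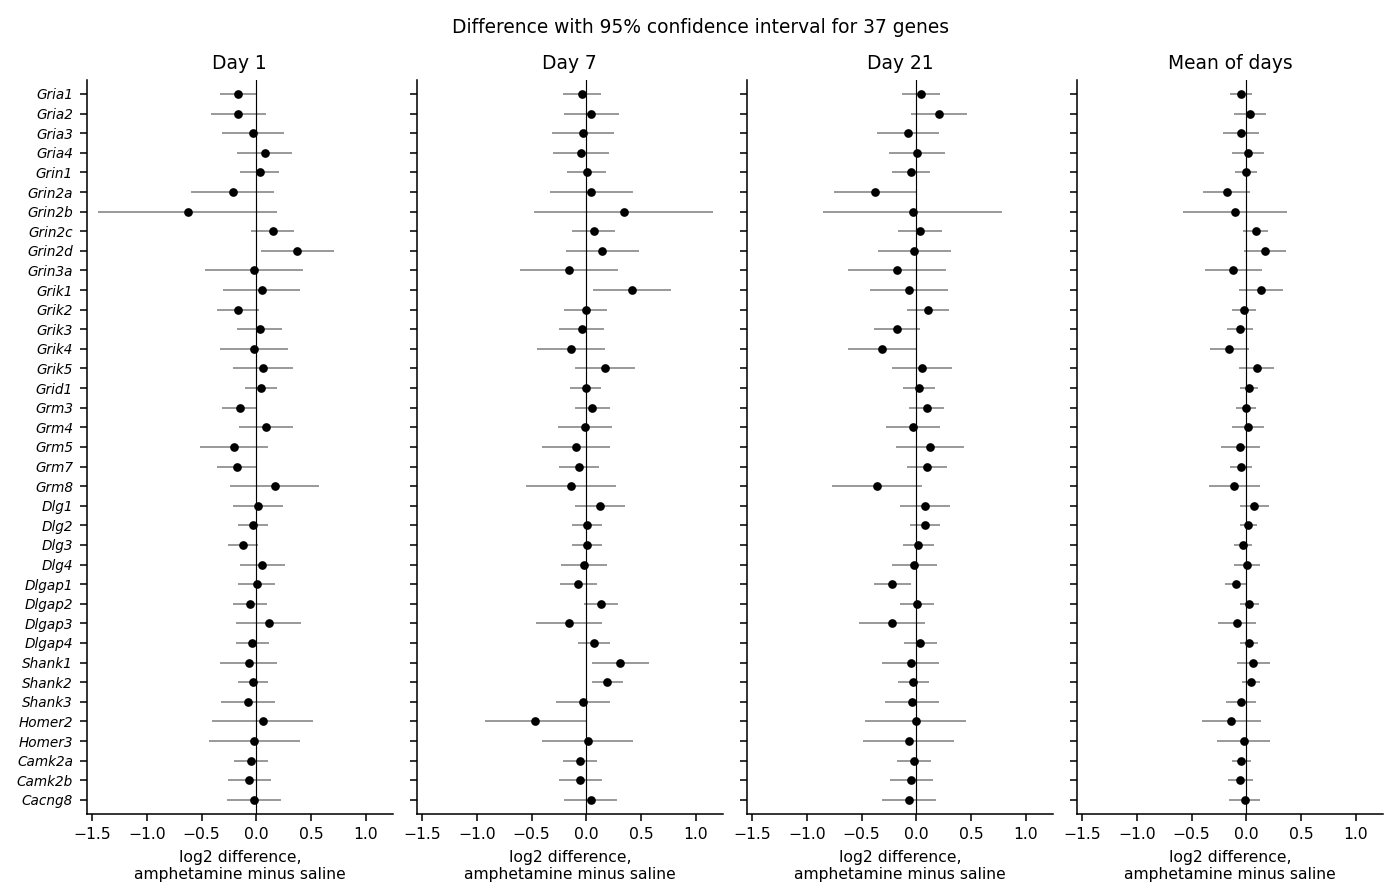
Log2 difference, amphetamine minus saline on the log2(FPKM + 1) scale, with its 95% confidence interval from limma (3 animals against 3 on a day), for 37 genes on day 1, day 7 and day 21 and for the mean of the days. The intervals are narrowest for the mean of the days, and those of Grin2b are the widest.

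Fully separated groups of 3 were found for 5 to 6 of the 37 genes on a day. On day 1 all 3 amphetamine values lay above all 3 saline values for 1 of 37 genes (Grin2d), where 7.73% of all genes tested did so, and below them for 4 of 37 (Gria1, Grin2b, Grm3 and Grm7), where 2.91% did. On day 7 they lay above for 4 of 37 (Grik1, Grik5, Dlg1 and Shank2), against 5.45%, and below for 2 of 37 (Dlgap3 and Homer2), against 4.86%. On day 21 they lay above for 1 of 37 (Gria2), against 4.76%, and below for 4 of 37 (Grin2a, Grik3, Grik4 and Dlgap1), against 7.51%. No gene was in the same list on more than 1 day.

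AMPA receptor genes: 0 of 4 passed on any day. Gria2 had 135, 150.3 and 125 FPKM in amphetamine animals on day 1, against 189, 131 and 145 FPKM in saline animals. On day 7 it had 143, 139 and 155 FPKM with amphetamine, against 151, 147 and 126 FPKM with saline, and on day 21 154, 163 and 147 FPKM with amphetamine, against 146, 122 and 133 FPKM with saline. There was overlap on days 1 and 7, while on day 21 the 3 amphetamine values all lay above the 3 saline values. On days 1, 7 and 21 its log2 differences were -0.17, 0.05 and 0.21 (limma adjusted p = 0.708, 1.00 and 0.869), and 0.03, with a 95% confidence interval of -0.12 to 0.17 for the mean of the days. The day 1 value was -0.016 without replicate 1 of the saline group, -0.28 without replicate 2 of that group and -0.10 without replicate 3 of the amphetamine group. Gria1 had 58.95, 57.3 and 48.4 FPKM with amphetamine on day 1, against 59.1, 61.3 and 63.6 FPKM with saline, groups that did not overlap by the narrow margin between the highest amphetamine and the lowest saline value. Its log2 difference was -0.16 (limma adjusted p = 0.674), and -0.08 without replicate 3 of the amphetamine group.

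NMDA receptor genes: 0 of 6 passed on any day. Grin1 had 131, 113 and 122 FPKM with amphetamine on day 1, against 109, 133 and 117 FPKM with saline, and 132, 122 and 139 FPKM with amphetamine on day 7, against 133, 126 and 133 FPKM with saline. On day 21 it had 116, 114 and 128 FPKM with amphetamine, against 118, 135 and 119 FPKM with saline. The groups overlapped on all 3 days, and the mean log2 difference was -0.0056, with a 95% confidence interval of -0.11 to 0.10.

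Grin2d, the NMDA receptor subunit gene of interneurons and early development, had the smallest p of the 37 genes on day 1. It had 3.00, 2.14 and 2.35 FPKM with amphetamine, against 1.63, 1.58 and 1.85 FPKM with saline, a log2 difference of 0.37 ± 0.16 (SE, limma unadjusted p = 0.0301, adjusted p = 0.674). On day 7 it had 1.66, 2.56 and 1.88 FPKM with amphetamine, against 1.32, 1.45 and 2.54 FPKM with saline, and on day 21 1.69, 1.70 and 1.68 FPKM with amphetamine, against 1.64, 2.08 and 1.48 FPKM with saline. The groups were apart on day 1 and overlapped on days 7 and 21. These are low levels, near 2 FPKM, at which counting noise is a larger share of the value than for Grin1. Grin2a, a subunit gene that gains ground over Grin2b as forebrain synapses mature, had 4.72, 3.97 and 2.91 FPKM with amphetamine on day 21, against 5.70, 4.92 and 5.13 FPKM with saline, a log2 difference of -0.38 (limma unadjusted p = 0.0515, adjusted p = 0.869) that was -0.23 without replicate 3 of the amphetamine group. On day 1 it had 4.79, 5.17 and 3.30 FPKM with amphetamine, against 4.24, 5.61 and 5.92 FPKM with saline, and on day 7 4.76, 5.48 and 5.71 FPKM with amphetamine, against 5.02, 6.61 and 3.96 FPKM with saline. The groups were apart on day 21 and overlapped on the other days. Grin2b had 5.30, 6.49 and 2.40 FPKM with amphetamine on day 1, against 6.56, 6.74 and 9.10 FPKM with saline. On day 7 it had 5.94, 8.23 and 9.35 FPKM with amphetamine, against 5.96, 9.46 and 3.48 FPKM with saline, and on day 21 10.5, 5.70 and 3.43 FPKM with amphetamine, against 9.24, 4.67 and 5.27 FPKM with saline. The groups were apart on day 1 and overlapped on the later days. Its log2 difference was -0.63 on day 1 (95% confidence interval -1.45 to 0.19, limma adjusted p = 0.687), 0.34 on day 7 and -0.03 on day 21. The day 1 value was -0.29 without replicate 3 of the amphetamine group, -0.34 with the library GC slope described below as a covariate and -0.39 with the cortical marker score as one.

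Kainate and delta receptor genes: 0 of 6 passed on any day. Grik5 had 63.2, 55.2 and 65.6 FPKM with amphetamine on day 1, against 46.6, 73.9 and 58.2 FPKM with saline, and 71.3, 65.6 and 72.5 FPKM with amphetamine on day 7, against 62.3, 60.5 and 62.9 FPKM with saline. The day 21 values were 63.2, 59.3 and 74.6 FPKM with amphetamine, against 59.9, 65.1 and 64.5 FPKM with saline. The groups were apart on day 7 alone, and the mean log2 difference was 0.09, with a 95% confidence interval of -0.06 to 0.25. Grik1 had 1.09, 1.66 and 0.916 FPKM with amphetamine on day 7, against 0.440, 0.735 and 0.794 FPKM with saline, a log2 difference of 0.42 ± 0.16 (SE, limma unadjusted p = 0.0239, adjusted p = 0.892) that was 0.80 with a pseudocount of 0.1. On day 1 it had 1.13, 1.23 and 1.28 FPKM with amphetamine, against 1.13, 0.911 and 1.39 FPKM with saline, and on day 21 1.15, 1.24 and 0.587 FPKM with amphetamine, against 1.38, 0.843 and 1.01 FPKM with saline, with overlap on both days. The 3 saline values of day 7 were lower than all saline values of the other days.

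Grik4, a partner subunit like Grik5, had 2.03, 1.47 and 1.47 FPKM with amphetamine on day 21, against 2.60, 2.09 and 2.18 FPKM with saline, a log2 difference of -0.31 (limma unadjusted p = 0.0489, adjusted p = 0.869). It had 2.52, 2.32 and 1.60 FPKM with amphetamine on day 1, against 1.91, 2.48 and 2.13 FPKM with saline, and 1.42, 2.18 and 1.36 FPKM with amphetamine on day 7, against 1.64, 1.92 and 2.16 FPKM with saline. There was overlap on days 1 and 7, and the mean log2 difference was -0.16, with a 95% confidence interval of -0.34 to 0.02 (limma unadjusted p = 0.0807, adjusted p = 0.985). Grid1 had 18.05, 15.4 and 17.2 FPKM with amphetamine on day 1, against 15.3, 16.7 and 16.9 FPKM with saline, and 16.9, 16.1 and 17.4 FPKM with amphetamine on day 7, against 16.8, 15.96 and 17.96 FPKM with saline. On day 21 it had 16.5, 16.9 and 18.5 FPKM with amphetamine, against 16.3, 17.4 and 17.3 FPKM with saline. All groups overlapped, and its mean log2 difference was 0.02, with a 95% confidence interval of -0.06 to 0.10.

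Metabotropic receptor genes: 0 of 5 tested passed on any day. Grm5 had 84.5, 89.9 and 66.6 FPKM with amphetamine on day 1, against 109, 80.04 and 89.2 FPKM with saline, and 82.3, 81.5 and 103 FPKM with amphetamine on day 7, against 100.1, 90.2 and 92.7 FPKM with saline. The day 21 values were 99.9, 97.6 and 76.6 FPKM with amphetamine, against 94.2, 76.04 and 80.1 FPKM with saline. The groups overlapped on all 3 days, and the mean log2 difference was -0.06, with a 95% confidence interval of -0.24 to 0.12. Grm7, a presynaptic receptor gene, had 14.7, 13.8 and 11.9 FPKM with amphetamine on day 1, against 16.2, 14.7 and 15.1 FPKM with saline, a log2 difference of -0.18 (limma unadjusted p = 0.0514, adjusted p = 0.674) that was -0.10 without replicate 3 of the amphetamine group. On day 7 it had 13.4, 12.1 and 14.3 FPKM with amphetamine, against 14.4, 13.1 and 14.3 FPKM with saline, and on day 21 13.1, 14.8 and 15.1 FPKM with amphetamine, against 13.3, 14.3 and 12.3 FPKM with saline. On day 1 the highest amphetamine and the lowest saline value differed by a small part of the range, and the groups overlapped on the later days.

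Grm3, which is found in glia as well as neurons, had 19.01, 19.3 and 18.6 FPKM with amphetamine on day 1, against 20.9, 21.5 and 21.1 FPKM with saline, a log2 difference of -0.15 (limma unadjusted p = 0.0606, adjusted p = 0.674). On day 7 it had 19.1, 18.8 and 21.9 FPKM with amphetamine, against 17.6, 20.7 and 19.2 FPKM with saline, and on day 21 21.2, 19.9 and 22.8 FPKM with amphetamine, against 20.98, 18.2 and 20.5 FPKM with saline. Animals within each day 1 group were close together and the groups apart, whereas on the later days the amphetamine mean was the higher one and the groups overlapped. Of the 8 astrocyte markers, 7 had a positive log2 difference on day 1, with a median of 0.19, and their part in this value was not tested. Grm2, which was not tested, lay between 0.365 and 0.923 FPKM with amphetamine and between 0.326 and 1.21 FPKM with saline.

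Scaffold genes: 0 of 13 passed on any day. Dlg4 had 193, 170.4 and 205 FPKM with amphetamine on day 1, against 159, 197 and 191 FPKM with saline, and 199, 176 and 202 FPKM with amphetamine on day 7, against 188, 197 and 199.5 FPKM with saline. On day 21 it had 180.1, 179.9 and 210.2 FPKM with amphetamine, against 177, 203 and 197 FPKM with saline. Amphetamine and saline values overlapped on all 3 days, and the mean log2 difference was 0.0061, with a 95% confidence interval of -0.11 to 0.13. Shank2 had 12.4, 13.3 and 13.6 FPKM with amphetamine on day 7, against 11.1, 11.7 and 11.3 FPKM with saline, a log2 difference of 0.19 ± 0.07 (SE, limma unadjusted p = 0.0111, adjusted p = 0.822). It had 13.03, 13.1 and 12.3 FPKM with amphetamine on day 1, against 12.2, 14.04 and 13.01 FPKM with saline, and 12.5, 11.1 and 12.6 FPKM with amphetamine on day 21, against 13.03, 11.3 and 12.6 FPKM with saline. The amphetamine values of day 7 lay within the range of the day 1 groups, and the saline values of day 7 lay below that range. Values as low occurred on day 21, at 11.1 FPKM with amphetamine and 11.3 FPKM with saline. The amphetamine mean of day 7, 13.1 FPKM, was also the highest group mean.

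Shank1 had the same order on day 7, with 10.6, 14.6 and 11.6 FPKM with amphetamine, against 8.37, 9.49 and 11.3 FPKM with saline, a log2 difference of 0.31 ± 0.12 (SE, limma unadjusted p = 0.0224, adjusted p = 0.892) that was 0.19 without replicate 2 of the amphetamine group. On day 1 it had 12.2, 11.97 and 10.3 FPKM with amphetamine, against 11.1, 12.7 and 12.4 FPKM with saline, and on day 21 12.1, 12.6 and 10.2 FPKM with amphetamine, against 13.2, 11.2 and 11.7 FPKM with saline. The groups overlapped on all 3 days. The third Shank gene, Shank3, had a log2 difference of -0.03 on day 7, and the mean difference was -0.05, with a 95% confidence interval of -0.19 to 0.09.

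Dlgap1 had the smallest p of the 37 genes on day 21 and for the mean of the days. The day 21 values were 19.2, 19.2 and 17.7 FPKM with amphetamine, against 24.8, 20.6 and 20.8 FPKM with saline, a log2 difference of -0.22 ± 0.08 (SE, limma unadjusted p = 0.0143, adjusted p = 0.869). On day 1 it had 21.2, 18.5 and 20.1 FPKM with amphetamine, against 18.05, 20.6 and 20.9 FPKM with saline, and on day 7 18.01, 17.1 and 18.5 FPKM with amphetamine, against 18.7, 20.05 and 17.9 FPKM with saline. The groups were apart on day 21, where replicate 1 of the saline group, at 24.8 FPKM, was the highest of all 18 and the difference was -0.14 without it, and overlapped on the other days. Its mean log2 difference was -0.10, with a 95% confidence interval of -0.19 to 0.0024 (limma unadjusted p = 0.0551, adjusted p = 0.939). Dlgap3 had 141, 118 and 164 FPKM with amphetamine on day 1, against 109.8, 147 and 133 FPKM with saline, and 147, 129.8 and 155 FPKM with amphetamine on day 7, against 161, 157 and 163 FPKM with saline. On day 21 it had 126, 114 and 150.0 FPKM with amphetamine, against 133, 176 and 147 FPKM with saline. The groups were apart on day 7 alone, with a log2 difference of -0.16 that was -0.084 without replicate 2 of the amphetamine group, and the mean log2 difference was -0.09, with a 95% confidence interval of -0.26 to 0.08. Homer2 was at 0.368, 1.88 and 1.74 FPKM with amphetamine on day 7, against 1.97, 1.97 and 2.22 FPKM with saline, and its log2 difference of -0.47 there (limma adjusted p = 1.00) was -0.12 without the library at 0.368 FPKM.

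Kinase and AMPA receptor auxiliary genes: 0 of 3 passed on any day. Camk2a had 349, 349.7 and 370.2 FPKM with amphetamine on day 1, against 332, 409 and 371 FPKM with saline, and 355, 322 and 357 FPKM with amphetamine on day 7, against 359.8, 381 and 338 FPKM with saline. The day 21 values were 375, 368 and 397 FPKM with amphetamine, against 391, 387 and 380.3 FPKM with saline. There was overlap on all 3 days. The mean log2 difference was -0.05, with a 95% confidence interval of -0.14 to 0.04 for Camk2a, -0.05, with a 95% confidence interval of -0.17 to 0.06 for Camk2b and -0.01, with a 95% confidence interval of -0.16 to 0.13 for Cacng8.

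**Figure D3:**
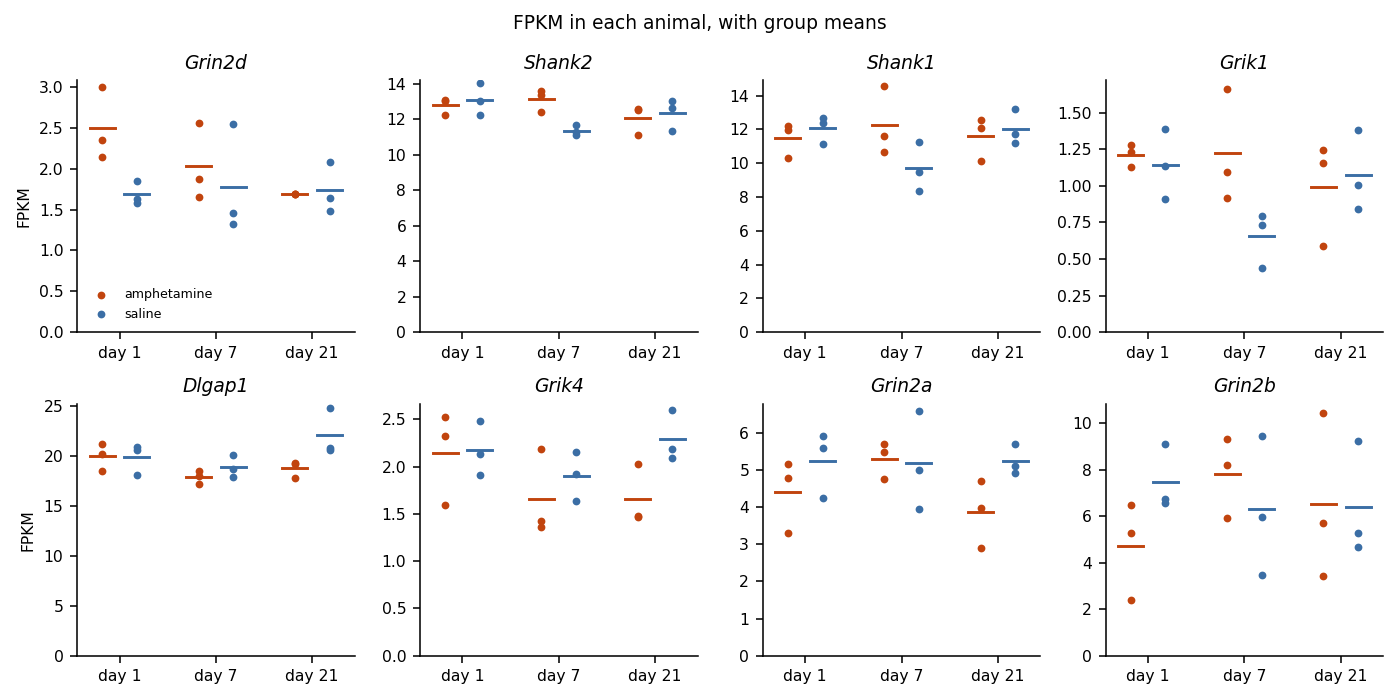
FPKM in each animal (points) with the group mean (bar) for 8 genes, amphetamine (orange) left of saline (blue) on day 1, day 7 and day 21, with every axis starting at 0. Grin2d on day 1, Shank2 and Grik1 on day 7, and Dlgap1, Grik4 and Grin2a on day 21 show groups of 3 that do not overlap, and Grin2b spans 3.43 to 10.5 FPKM within the amphetamine group of day 21.

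The difference between amphetamine and saline was also compared between days. In limma's test of the treatment by day interaction, 0 of 37 genes passed, against 0% of all genes, and the smallest adjusted p was 0.773. At an unadjusted p under 0.05 there was 1 of 37 genes, against 6.25% of all genes: Shank2 (unadjusted p = 0.0488), whose treatment difference was 0.22 larger on day 7 than on day 1 on the log2 scale. Among the saline animals, the test of any difference between days was passed by 0 of 37 genes, against 0.00716% of all genes, with a smallest adjusted p of 0.804. At an unadjusted p under 0.05 there were 3 of 37 genes, against 5.95% of all genes: Shank2, Shank1 and Dlgap1. Shank1 was 0.30 lower and Shank2 0.19 lower on day 7 than on day 1 in saline animals. Among the amphetamine animals 0 of 37 genes passed, against 0% of all genes, with a smallest adjusted p of 0.445. At an unadjusted p under 0.05 there was 1 of 37 genes, against 11.2% of all genes: Grik2, which was 0.18 higher on day 7 and 0.24 higher on day 21 than on day 1. The treatment tests of Shank1 and Shank2 on day 7 and these tests of days share the saline libraries of day 7.

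Ratios of subunits within a family were tested as single values per library. The ratio of Gria1 to Gria2, which bears on calcium entry through AMPA receptors, averaged 0.402 ± 0.030 with amphetamine and 0.406 ± 0.082 with saline on day 1, 0.415 ± 0.011 with amphetamine and 0.442 ± 0.051 with saline on day 7, and 0.382 ± 0.046 with amphetamine and 0.430 ± 0.069 with saline on day 21 (SD, n = 3 each). The ratio of Grin2a to Grin2b averaged 1.03 ± 0.31 with amphetamine and 0.710 ± 0.11 with saline on day 1, 0.693 ± 0.098 with amphetamine and 0.893 ± 0.22 with saline on day 7, and 0.666 ± 0.20 with amphetamine and 0.881 ± 0.23 with saline on day 21. The ratio of Camk2a to Camk2b averaged 1.15 ± 0.066 with amphetamine and 1.14 ± 0.013 with saline on day 1, 1.05 ± 0.045 with amphetamine and 1.06 ± 0.050 with saline on day 7, and 1.17 ± 0.028 with amphetamine and 1.16 ± 0.097 with saline on day 21. Each of the 3 ratios overlapped between treatments on each day. The log2 difference over the days was -0.08 for Gria1 to Gria2, -0.07 for Grin2a to Grin2b and 0.01 for Camk2a to Camk2b (exact permutation test, two-sided, over the 8000 ways to assign treatment within days, p = 0.354, 0.652 and 0.790, each 0.790 after adjustment over the 3 ratios). The smallest p that this design allows is 0.00025.

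Other genes of the glutamate synapse gave a comparison under the same test. Of 60 listed, which included other auxiliary subunits, glutamate transporters, neuroligins and neurexins, 59 were in the table and 55 were tested. On days 1, 7 and 21, 0 of 55 passed in either direction, against 0.00716%, 0.0215% and 0% of all genes tested. The median log2 differences of the 55 were 0.016, 0.0012 and -0.023. For the mean of the days, 1 of 55 rose and 0 fell, where 0.122% of all genes tested passed in either direction. The gene that rose was Arc, whose product drives the removal of AMPA receptors from the synapse. Arc had 47.8, 61.9 and 130.4 FPKM with amphetamine on day 1, against 31.7, 31.3 and 29.1 FPKM with saline, 69.5, 90.8 and 82.8 FPKM with amphetamine on day 7, against 29.5, 26.6 and 24.4 FPKM with saline, and 95.5, 54.7 and 63.3 FPKM with amphetamine on day 21, against 27.7, 37.7 and 20.4 FPKM with saline. Every amphetamine value of Arc lay above every saline value, with a mean log2 difference of 1.35 ± 0.17 (SE, limma adjusted p = 0.00336).

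The variation between libraries of the same group had a pattern of its own, and whether it arose in the animals or in the library preparation was not tested. For each library, the deviation of each gene from its mean over the 18 libraries was related to the GC content of its transcripts, which gave a library GC slope in log2 units per 10 percentage points of GC. The slope was computed from 12214 tested genes that are not among the 38, so that the 38 do not enter it while most of the other genes do. A library with a positive slope holds higher values of GC-rich transcripts than the average library. The slopes were 0.045, -0.076 and 0.13 in the amphetamine group and -0.17, 0.062 and -0.030 in the saline group of day 1. On day 7 they were 0.039, 0.024 and 0.015 with amphetamine and -0.061, -0.0090 and 0.064 with saline, and on day 21 -0.062, -0.086 and 0.032 with amphetamine and -0.024, 0.10 and 0.0041 with saline. The groups overlapped on each day, and replicate 1 of the saline group of day 1 had the lowest slope of the 18. This measure was added after the data were seen.

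Within groups, 13 of the 37 genes followed the library GC slope past the threshold, where 17.7% of all genes tested did. Of these, 10 of 37 rose with the slope, against 13.2% of all genes, and 3 of 37 fell, against 4.49%. Gria2 fell by 0.18, Grm5 by 0.20 and Grik2 by 0.12 on the log2 scale for each 0.1 of slope (limma adjusted p = 0.000592, 0.00434 and 0.0104). Dlgap3 rose by 0.20, Grik5 by 0.18, Grm4 by 0.14, Dlg4 by 0.13 and Shank3 by 0.13 (limma adjusted p = 0.00179, 0.0041, 0.0212, 0.00413 and 0.032). Grin2c rose by 0.12, Camk2b by 0.10, Grin1 by 0.09, Dlgap4 by 0.08 and Grid1 by 0.07 (limma adjusted p = 0.0102, 0.0473, 0.0281, 0.0255 and 0.0453). The remaining 24 genes did not pass, among them Grin2b, whose fitted slope of -0.36 was the largest in size (limma adjusted p = 0.117). The count was 7 of 37 without replicate 2 of the amphetamine group of day 1 (10.6% of all genes in that fit), without replicate 1 of the saline group of day 1 (10.4%), and with median-of-ratios scaling (16.8%), where the share of the 37 genes is near that of all genes. It was 8 of 37 without replicate 3 of that amphetamine group (12.2% of all genes), replicate 2 of that saline group (12.9%) or replicate 3 of the amphetamine group of day 21 (15.1%). With the filter at a mean of 5 FPKM, which leaves out genes of low level, the count was 13, where 26.5% of all genes tested passed (2504 of 9452). This count is not out of 37, since those of the 37 under 5 FPKM, such as Grin2a at 4.89 FPKM, were left out too. Under 21 alternative settings, 6 of the 13 passed in all: Gria2, Grm5, Grik5, Grin2c, Dlg4 and Dlgap3.

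**Figure D4:**
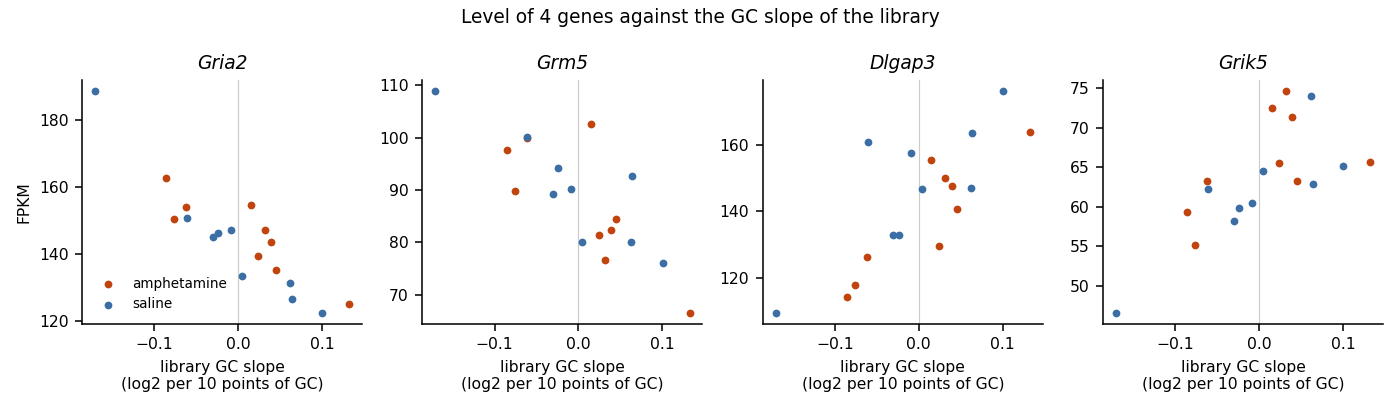
FPKM of Gria2, Grm5, Dlgap3 and Grik5 in the 18 libraries (vertical axes, which do not start at 0) against the library GC slope (horizontal axes, log2 per 10 percentage points of GC), amphetamine in orange and saline in blue. Gria2 and Grm5 are highest in the saline library with the lowest slope, where Dlgap3 and Grik5 are lowest, and points of both treatments lie on either side of 0.

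The direction went with the base composition of the genes, and also with the length of their longest annotated transcript. The 3 genes that fell past the threshold have 8047 to 10371 bases, and the 10 that rose 3763 to 7365 bases. Grm5 and Grid1 have similar GC contents, 49.8% and 49.9%, but 8047 and 5720 bases and opposite slopes. Shank1, with 63.7% GC and 9826 bases, had a slope of -0.0094. The parts of GC content and length were not tested apart. Transcript GC content ran from 40.2% in Gria2 to 65.1% in Grin2d, with a median of 51.0% over all tested genes that have a value. Of the 21 genes above that median, 16 had a positive slope, and of the 16 below it, 12 had a negative slope. Across the 37 genes, which are not independent replicates, the fitted slope and the GC content had a Pearson correlation of 0.689 and a Spearman correlation of 0.748. Across the other tested genes, which are not independent replicates either, the Pearson correlation was 0.594. The library GC slope was computed from those other genes, so a positive correlation there is built in and is no measure to set the 37 against. The coding ends of Gria2 and Dlgap3 shown above belong to the least and to one of the most GC-rich of these genes.

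**Figure D5:**
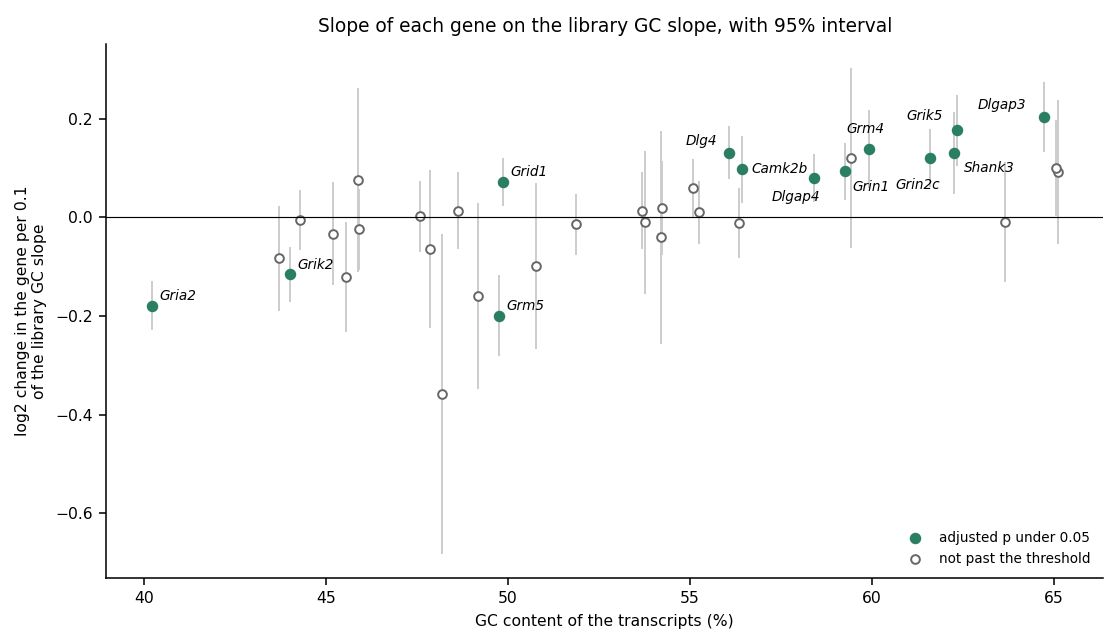
Fitted log2 change of each of 37 genes per 0.1 of library GC slope, with its 95% confidence interval (vertical axis), against the GC content of its transcripts in percent (horizontal axis). Filled points passed an adjusted p of 0.05: 3 genes below 50% GC lie under 0, and 10 genes, of which Grid1 alone is below 50% GC, lie above it.

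With the library GC slope as a covariate, 0 of 37 genes passed on days 1, 7 and 21 and for the mean of the days, where 0.00716%, 0.0215%, 0% and 0.114% of all genes did. The smallest limma adjusted p was 0.926, 0.549, 0.915 and 0.567 in that order. The covariate moved the log2 difference by more than 0.1 for 9 of 37 genes on day 1, 1 on day 7, 6 on day 21 and 0 for the mean of the days, and its sign was turned for 9, 4, 11 and 2 genes. The estimate moved farthest for Grin2b, which was -0.34 with the covariate and -0.63 without it on day 1, and -0.27 with it and -0.03 without it on day 21. On day 1 Gria2 was -0.02 with the covariate and -0.17 without it, Grm5 -0.04 with it and -0.20 without it, Dlgap3 -0.05 with it and 0.11 without it, and Grik5 -0.08 with it and 0.06 without it. On day 21 Gria2 was 0.09 with it and 0.21 without it, Grm5 -0.0056 with it and 0.12 without it, Dlgap3 -0.09 with it and -0.22 without it, and Grik5 0.17 with it and 0.05 without it. Of these 10 estimates, those of Grin2b and Grik5 on day 21 and of Grik5 on day 1 were farther from 0 with the covariate, and the others were closer to it. On day 7 Dlgap3 was -0.21 with the covariate (95% confidence interval -0.37 to -0.06, limma adjusted p = 0.549) and -0.16 without it. Gria2 was 0.10 with it and 0.05 without it, and Grin2b 0.44 with it and 0.34 without it, likewise farther from 0. Grm5, at -0.04 with it and -0.09 without it, and Grik5, at 0.12 with it and 0.17 without it, were closer. For the mean of the days, Dlgap3 was -0.12 with the covariate, with a 95% confidence interval of -0.21 to -0.03 that does not hold 0 (limma adjusted p = 0.567), and -0.09 without it. It was 1 of 37 genes with such an interval for the mean of the days, against 0 of 37 without the covariate. On days 1, 7 and 21 there were 0, 4 and 2 of 37 with the covariate and 1, 4 and 2 without it. The cortical marker score, the mean log2 level of the cortical markers in the table, was used in the same way: 0 of 37 genes followed it within groups, against 0.0501% of all genes (7 of 13971), with 1 of 37 at an unadjusted p under 0.05 (Grin3a, limma unadjusted p = 0.0355). With it as a covariate, 0 of 37 passed on days 1, 7 and 21 and for the mean of the days, where 0.00716%, 0.0215%, 0% and 0.0572% of all genes did.

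Some pairs of genes varied together across the 18 libraries. The 4 pairs given were picked after their values were seen, so they are described with no test, and the genes of a pair share library and depth. Dlg4 and Dlgap3, both GC-rich, had a Pearson r of 0.856 and a Spearman rho of 0.829. Gria2 and Grm5, which both fell with the library GC slope, had an r of 0.775 and a rho of 0.808, and Gria2 and Dlgap3, which follow it in opposite directions, an r of -0.729 and a rho of -0.569. Grin2a and Grin2b had an r of 0.806 and a rho of 0.715, although neither passed for the library GC slope (limma adjusted p = 0.425 and 0.117). Without the 2 libraries farthest from the median of the first gene, r was 0.763, 0.695, -0.537 and 0.668 in that order. After the group means were taken out, r was 0.93, 0.808, -0.738 and 0.926.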

How the data were processed

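PolyA RNA of 18 striatal libraries was deposited by the authors as 1 table of FPKM for 29942 gene names, with 0 columns of other samples. Header numbers were matched to the sample descriptions. Bowtie and the build mm9 were named, per the submitters' processing notes. No source used here names a version, the quantifying program, the annotation or the strand handling. Absolute depth was unknown, so no interval of counting error is given.

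Values were tested as log2(FPKM + 1), which understates changes of low genes, for the 13975 genes that averaged 1 FPKM or more. A limma fit (limma version 3.58.1 in R version 4.3.3) took in the 18 libraries and gave each group its own mean, with a trended prior variance and 12 residual degrees of freedom, and two-sided p-values were adjusted by the Benjamini-Hochberg method over all genes tested. GC content was the median over GENCODE M21 protein-coding transcripts. It was matched by symbol or RefSeq synonym for 12251 tested genes (87.7%), and the 37 genes all had a value. Ratios were tested by exact permutation in R, and correlations computed in Python (version 3.11.15, scipy version 1.17.1). Plots were made in matplotlib (version 3.10.9).

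The genes and lists were chosen with earlier results of these data known. Given in every library were any gene past the threshold, otherwise the 3 genes with the smallest p in each treatment contrast, and the highest gene of each family. Gria1, Grin2b, Dlgap3 and Homer2 were added after their values were seen. The limma fits of the day 1 contrast and of a slope on a score were tested on simulated data with known changes. The computation of the GC slope, the ratio tests and the correlations were not. Other settings tried were median-of-ratios scaling, a filter at 5 FPKM or none, a pseudocount of 0.1, the replicate number as a block, the cortical marker score (or Slc17a7 alone) in its own fit, fits to the 6 libraries of a day, and leaving out each library. The GC slope was added after the data were seen.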

Additional observations from a re-analysis of the deposited data

How the results depend on the processing

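No gene of the 37 passed in a treatment or day contrast under any of 28 alternative settings. With 3 animals a group, counts per library unknown and 12 residual degrees of freedom, differences inside the intervals given remain possible, and those of genes near 1 or 2 FPKM are the least certain. Same-numbered libraries correlated at -0.0853 to 0.145 in their deviations from the group means. The library of the same number was the best match in 4 of 9 comparisons. These included every comparison of day 21, with r of 0.114, 0.043 and 0.145, against -0.042, 0.013 and -0.00038 for the best other library. None was of day 7, with r of -0.025, -0.046 and -0.085, against 0.022, 0.082 and 0.061. The numbers were not taken to pair animals, although those of day 21 matched. With the replicate block, 0 of 37 genes passed in each contrast (smallest adjusted p 0.650, 0.865, 0.852 and 0.953 on days 1, 7 and 21 and for the mean), the medians were -0.020, -0.0053, -0.025 and -0.021, and 8 genes of all tested passed for the mean of the days, against 17 without the block. Median-of-ratios scaling moved the median difference of the 37 genes on day 1 to -0.069, where it moved that of all genes by at most 0.047, and left 7 genes on the library GC slope instead of 13. Leaving out 1 library at a time gave medians of -0.074 (without replicate 1 of the day 1 saline group) to 0.012 on day 1, -0.039 to 0.043 (without replicate 2 of the day 7 amphetamine group) on day 7, -0.034 to 0.0020 on day 21 and -0.036 to -0.0035 for the mean of the days. It gave 7 to 13 genes on the GC slope, with 7 without replicate 2 of the day 1 amphetamine group or replicate 1 of the day 1 saline group, and 8 without replicate 3 of the day 1 amphetamine group, replicate 2 of the day 1 saline group or replicate 3 of the day 21 amphetamine group. The log2 difference of the ratio of Grin2a to Grin2b then ran from -0.14 to 0.0025, that of Camk2a to Camk2b from -0.010 to 0.030 and that of Gria1 to Gria2 from -0.14 to -0.040. The cause of these shifts was not tested.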
